A study of Mus musculus with 44 samples.

Results

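The 32 genes described here encode enzymes that make cholesterol and fatty acids, together with the regulators that set their transcription. They were taken as a list of gene symbols and not by a rule on their measured values. The list was chosen with earlier results of these data known. All 32 were among the 23234 genes of the deposited table, and all 32 passed the filter on low values, which kept 13907 genes. By role, 7 belong to the mevalonate pathway, 11 act on squalene and the sterol rings, 6 regulate or handle sterols, and 8 make, lengthen or desaturate fatty acids.

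RNA was measured in induced leukocyte stem (iLS) cells, multipotent mouse blood progenitors made from C57BL/6J fetal liver and kept undifferentiated by Id3-ERT2, an Id3 fusion that needs 4-hydroxytamoxifen (4-OHT). All 44 libraries came from cells grown on the TSt-4 stromal feeder line. The growth medium held 4-OHT at 40 nM, SCF and Flt-3L at 10 ng/mL each, and IL-7 at 20 ng/mL; differentiation towards B cells was then started on the same feeder line without 4-OHT and with IL-7 at 5 ng/mL. The 0 h group and 13 later groups (0.5, 1, 2, 4, 6, 8, 10, 12, 24, 48, 72, 96 and 144 h after the change) held 3 libraries each, and 120 h and 168 h had a single library each. There was no parallel culture left in the growth medium, so time in the new medium and the medium itself cannot be told apart. The labels do not say whether replicates were separate cultures, so the p-values measure only the spread between these libraries. The data bear on how RNA of the lipid synthesis pathway changed after the switch.

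Cells make cholesterol from acetyl-CoA by way of mevalonate, farnesyl diphosphate, squalene and lanosterol, and they make fatty acids from the same acetyl-CoA. SREBP transcription factors switch on both sets of genes. SCAP carries SREBP to the Golgi for processing when membrane sterol is low, and the Insig proteins hold SCAP back in the endoplasmic reticulum when sterol is high. SREBP2, encoded by Srebf2, is best known for sterol genes, and a form of SREBP1, encoded by Srebf1, for fatty acid genes. Proliferating blood progenitors are known to need both pathways for new membrane.

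RNA of stromal genes was measured in the libraries beside that of blood-cell genes, and its level moved with time; the labels do not say whether feeder cells were removed before RNA was isolated. Expression of 23 stromal genes, added up, came to 1272 ± 898 FPKM before the switch (SD, n = 3). It was already 6164.5 ± 442 after 0.5 h, and 6668 ± 1273 after 2 h, 9821 ± 631 after 8 h and 10027 ± 792 after 12 h. The total then declined to 8121 ± 870 by 24 h and 2385 ± 666 by 144 h. For 18 genes common to blood cells, among them Ptprc (CD45), the total was 2498 ± 359 FPKM before the switch. It was 1282 ± 55.6 after 0.5 h, 1179 ± 191 after 2 h, 877 ± 89.3 after 8 h, 621 ± 230 after 24 h and 1764 ± 199 after 144 h. By 0.5 h, 21 of the 21 stromal genes tested were called higher than at 0 h and 13 of the 18 blood-cell genes lower. FPKM is fragments scaled to transcript length and to the library total, so more RNA from one kind of cell lowers the FPKM of genes of another. In such bulk RNA, fewer cells of a type and less RNA per cell cannot be told apart, nor can the cell type in which a lipid gene changed. The steps from 2 h to 8 h and from 12 h to 48 h, chosen after the values were seen, are given most room. In both, 0 of 18 blood-cell genes passed the test, at median log2 changes of -0.36 and -0.16. The same count of 0 was found at 24 h against 6 h and at 2 h against 1 h, at medians of -0.63 and -0.05. At an unadjusted p under 0.05 by limma, 10 of the 18 were lower at 24 h against 6 h. The number was 3 from 2 h to 8 h, 1 from 12 h to 48 h and 0 from 1 h to 2 h. So a count of 0 does not show that the blood-cell share stayed level. The libraries listed 11520 to 12316 genes at 1 FPKM or more. Judged from the smallest steps of the low values, their depth ranged from 0.555 to 2.25 times that of 0 h replicate 1.

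The DNA in front of the genes is shown because SREBP recognises sterol regulatory elements there, commonly with help from the CCAAT-binding factor NF-Y, and can also bind E-boxes. The RefSeq table (build GRCm38.p6) held promoters for 25 of the 32 genes; Fdps, Fdft1, Sqle, Stard4, Scd1, Scd2 and Fads1 had none. Searched on both strands within 250 bases before the start site, the sterol element core TCACNCCAC lay in 1 of 25 members (4%) and in 1.225% of all 27025 genes of the table. CCAAT lay in 19 of 25 members (76%) and in 37.49% of all genes. The E-box CACGTG, which reads the same on both strands, lay in 5 of 25 members (20%) and in 6.86% of all genes. The 150 bases that end at the start site are printed 5′ to 3′ on the gene's own strand for the 7 members with the largest falls from 2 h to 8 h among those that have a promoter and for Fasn, which did not pass that test. Capitals mark TCACNCCAC, CCAAT and CACGTG, read on either strand, so a CCAAT on the other strand stands as ATTGG. The windows are chr13:119690201-119690350 (Hmgcs1, plus strand), chr13:8885456-8885605 (Idi1, plus), chr8:122443423-122443572 (Mvd, minus), chr5:4104698-4104847 (Cyp51, minus), chr1:169969206-169969355 (Hsd17b7, minus), chr8:64733579-64733728 (Sc4mol, listed in RefSeq as Msmo1, minus), chr5:28071262-28071411 (Insig1, plus) and chr11:120824548-120824697 (Fasn, minus).
Hmgcs1: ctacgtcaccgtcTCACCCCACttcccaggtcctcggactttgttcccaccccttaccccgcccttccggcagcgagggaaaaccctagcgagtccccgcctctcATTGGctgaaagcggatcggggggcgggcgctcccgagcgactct
Idi1: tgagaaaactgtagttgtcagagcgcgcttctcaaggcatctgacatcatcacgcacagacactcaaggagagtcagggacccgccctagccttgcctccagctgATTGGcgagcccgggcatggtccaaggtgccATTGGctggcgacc
Mvd: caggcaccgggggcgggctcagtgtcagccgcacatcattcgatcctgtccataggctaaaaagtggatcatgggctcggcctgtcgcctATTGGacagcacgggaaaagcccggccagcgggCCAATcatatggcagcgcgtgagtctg
Cyp51: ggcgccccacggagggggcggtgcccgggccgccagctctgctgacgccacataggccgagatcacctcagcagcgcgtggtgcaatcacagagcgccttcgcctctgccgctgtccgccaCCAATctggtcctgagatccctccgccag
Hsd17b7: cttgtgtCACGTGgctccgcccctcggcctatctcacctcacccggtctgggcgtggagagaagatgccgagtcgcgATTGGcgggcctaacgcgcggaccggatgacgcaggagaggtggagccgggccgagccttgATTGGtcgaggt
Sc4mol: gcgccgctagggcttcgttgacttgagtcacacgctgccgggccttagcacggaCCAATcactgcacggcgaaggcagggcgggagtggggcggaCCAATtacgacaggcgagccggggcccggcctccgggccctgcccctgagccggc
Insig1: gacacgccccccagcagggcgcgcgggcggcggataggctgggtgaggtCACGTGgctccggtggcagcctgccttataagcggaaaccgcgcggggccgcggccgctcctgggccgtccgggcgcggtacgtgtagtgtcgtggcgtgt
Fasn: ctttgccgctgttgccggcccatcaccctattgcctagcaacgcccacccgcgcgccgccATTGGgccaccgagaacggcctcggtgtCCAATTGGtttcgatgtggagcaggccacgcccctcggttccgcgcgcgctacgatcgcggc
Of these 8 windows, that of Hmgcs1 holds the only match to the sterol element core, and it lies 137 to 129 bases before the start. Those of Hsd17b7 and Insig1 hold a CACGTG, and that of Insig1 holds no CCAAT within the 150 bases printed. The Fasn window, from a gene that did not pass the test, carries CCAAT matches like the others, 2 of which overlap in a palindrome. A match describes letters only, since binding was not measured.

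Before the switch, at 0 h, the levels of the 32 genes ran from Scd2, a stearoyl-CoA desaturase, at 273 ± 39.3 FPKM (SD, n = 3) to Hsd17b7, a sterol ketoreductase, at 5.79 ± 1.15. FPKM is scaled to length, so these levels can be set side by side. Fdps, which joins isoprene units into farnesyl diphosphate, came second at 118 ± 13.6 FPKM, followed by Acly, which supplies cytosolic acetyl-CoA, at 100 ± 11.4. Of the 31 pairs of neighbours in this order, 27 overlapped in their libraries. The 4 that did not overlap were Scd2 and Fdps, Fdps and Acly, Acly and Fads2 (71.2 ± 8.82), and Cyp51 (32.1 ± 1.21) and Elovl6 (24.9 ± 1.30).

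Over the whole course, 29 of the 32 genes differed between 0 h and some later time (limma's moderated F test on log2(FPKM + 1), adjusted p under 0.05), against 56.0% of all genes tested. Mvk (mevalonate kinase, adjusted p = 0.108), Ebp (sterol isomerase, 0.220) and Scap (0.140) did not pass. The mean FPKM was highest at 2 h in 12 genes, and lowest at 8, 10 or 12 h in 20 genes. The matching shares over all genes were not counted. In FPKM the course held an early rise in part of the list, a trough, and a return, as the heat map of changes and the plot of single libraries show. Scaled to the blood-cell genes, 14 of the 21 falls called at 8 h against 0 h and 13 of the 18 at 12 h took the opposite sign.

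**Figure D1:**
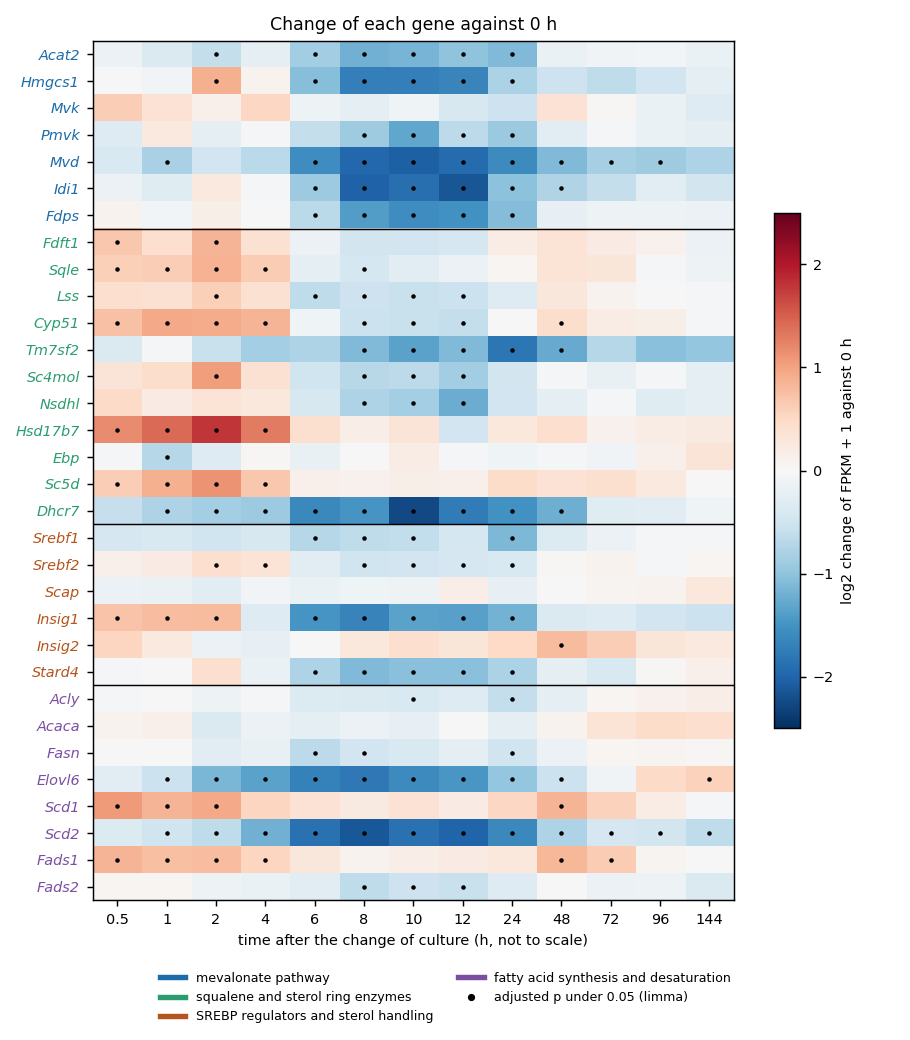
Change of each of the 32 genes on the log2(FPKM + 1) scale at 13 time points against 0 h, rows grouped by role (colour of the gene name), dots marking an adjusted p under 0.05 in limma. Red cells at 0.5 to 4 h stand mostly among the sterol ring enzymes, Scd1 and Fads1, and Insig1 is red at 0.5, 1 and 2 h but not at 4 h. Blue cells fill most rows from 6 to 24 h. Scaled to the blood-cell genes, 15 of the 16 falls called at 24 h took the opposite sign.

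**Figure D2:**
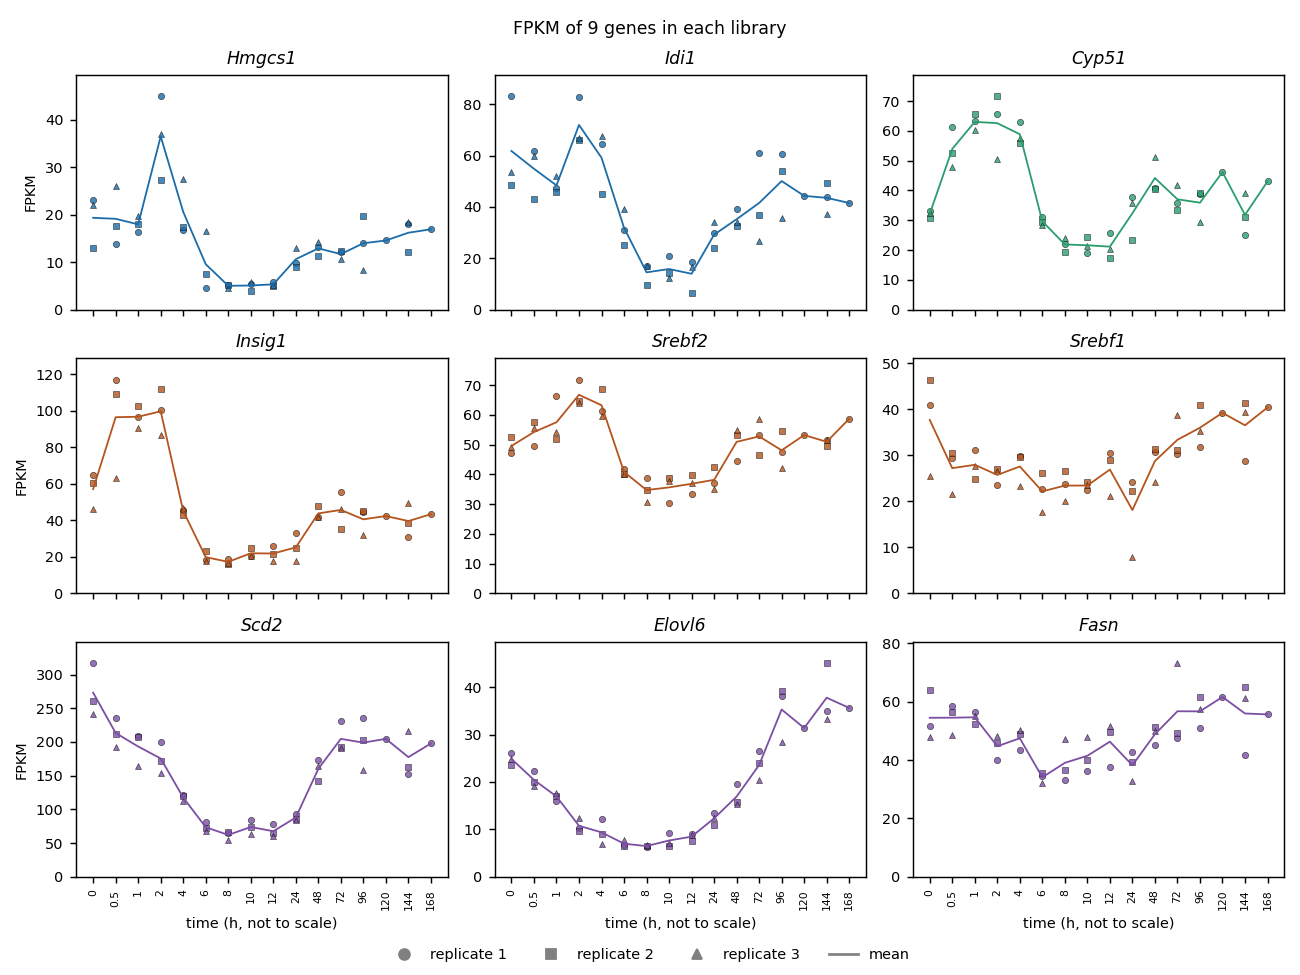
FPKM of 9 genes in each of the 44 libraries by time, with marker shape for the replicate number, colour for the role and a line through the means. In FPKM, Hmgcs1 and Idi1 were lowest at 8 to 12 h, and Insig1, Scd2 and Elovl6 had their lowest mean at 8 h. The means of Fasn at the replicated times stayed between 34.1 and 56.7, and its single 120 h library read 61.6.

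By 2 h, 7 of the 11 enzymes that act on squalene and the sterol rings were called higher than at 0 h in FPKM and 1 lower, while all 4 falls called among the 32 genes lost their call on the blood-cell scale given below. Against 0 h, 8 genes were called higher and 0 lower at 0.5 h by limma (background 14.3% and 7.29%; at an unadjusted p under 0.05, 9 and 1), 7 higher and 5 lower at 1 h (16.8% and 15.3%), and 12 higher and 4 lower at 2 h (16.5% and 18.5%). The lower calls at 1 h numbered 1 without 0 h replicate 1, and 2 without 0 h replicate 2 or any 1 of the 1 h libraries. Those at 2 h numbered 2 without 0 h replicate 1 or 2 h replicate 2. Of the 12 called at 2 h, 7 were squalene and sterol ring enzymes, 1 was in the mevalonate pathway (Hmgcs1), 2 were regulators (Insig1 and Srebf2) and 2 were desaturases (Scd1 and Fads1). Scaling the libraries to the blood-cell genes raised the median change of all genes by 0.89 at 2 h and called 7166 of all 13907 genes higher and 76 lower. All 12 were among those called higher, so this scale does not set them apart. The sign of 3 of the 4 falls (Acat2, Dhcr7 and Scd2) turned on it, none of them called. With the stromal level as a covariate 0 of the 12 passed and 11 kept their sign, at a median of 0.21 for the 32 genes beside 0.13 without it, while the calls among all genes went from 4863 to 88. A comparison of 2 h with 1 h, chosen after the values were seen, called 0 of 32 genes by limma (background 0.575% higher and 0.295% lower; at an unadjusted p under 0.05, 2 higher and 2 lower); 1 was called lower with a filter at 5 FPKM, with the stromal covariate and with either block.

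Hsd17b7 had the largest early rise. Its 0 h libraries read 4.68, 5.72 and 6.97 FPKM, those at 1 h 17.4, 19.6 and 14, and those at 2 h 25.0, 27.4 and 16.1. No early library came near the 0 h range. The log2 rise was 1.41 ± 0.22 at 1 h (SE, n = 3 a group, adjusted p = 1.2e-05 by limma) and 1.79 ± 0.22 at 2 h (adjusted p = 2.1e-07). Cyp51, the lanosterol demethylase, went from 33.2, 30.8 and 32.3 FPKM at 0 h to 63.3, 65.5 and 60.2 at 1 h and 65.6, 71.7 and 50.4 at 2 h. The groups stood apart at both times, with log2 rises of 0.95 ± 0.17 at 1 h and 0.93 ± 0.17 at 2 h (adjusted p = 6.0e-05 and 7.3e-05). The gene model of Cyp51 overlaps Akap9 on the opposite strand, and the library kit is not stated to keep strand, so reads of the pair may be shared.

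Other ring enzymes moved alongside, though they were picked for mention after their values were seen. Sc5d, a sterol desaturase, rose by 1.13 ± 0.20 on the log2 scale from 0 h to 2 h, from 22.1 to 49.6 FPKM. Sc4mol, which removes sterol methyl groups, rose by 1.05 ± 0.24 from 42.5 to 88.3 FPKM. Sqle, the squalene epoxidase, rose by 0.88 ± 0.16 from 41.0 to 75.7 FPKM. In each of the 3 all libraries at 2 h lay above all at 0 h (limma's adjusted p = 5.9e-05, 0.0011 and 6.1e-05).

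Hmgcs1, which makes HMG-CoA for the mevalonate pathway, showed its rise at 2 h and not at 1 h. Its libraries read 23.1, 12.9 and 22.1 FPKM before the switch, 16.3, 18.0 and 19.6 after 1 h, and 45.1, 27.4 and 37.1 after 2 h. The 2 h libraries lay above all of the earlier ones. The change from 0 h to 2 h was 0.90 ± 0.30 on the log2 scale (limma, adjusted p = 0.019), and the call was lost without 0 h replicate 2 (log2 change 0.64, adjusted p = 0.143) or without 2 h replicate 1 (0.73, adjusted p = 0.10).

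Among the regulators, Insig1 rose early and Srebf2 somewhat less. Insig1 had 64.6, 60.4 and 46.2 FPKM before the switch, 96.8, 103 and 90.6 after 1 h, and 101, 112 and 86.5 after 2 h. Its groups did not overlap, and the log2 rise was 0.76 ± 0.21 at 1 h and 0.80 ± 0.21 at 2 h (limma, adjusted p = 0.0060 and 0.0037). Srebf2 read 47.1, 52.5 and 49.1 FPKM at 0 h and 71.9, 64.6 and 63.9 at 2 h, again apart, a rise of 0.42 ± 0.12 (adjusted p = 0.0073).

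The fatty acid genes split in these hours. Scd1, a stearoyl-CoA desaturase like Scd2, went from 8.41, 8.84 and 10.1 FPKM to 23.2, 22.0 and 12.1 at 2 h, a log2 rise of 0.94 ± 0.25 (limma, adjusted p = 0.0032). Fads1, which desaturates long polyunsaturated fatty acids, went from 34.1, 35.7 and 45.8 to 72.6, 82.3 and 48.8 FPKM, a rise of 0.78 ± 0.17 (adjusted p = 7.1e-04) that became -0.22 with the stromal covariate. In both genes replicate 3 was the lowest 2 h library, and it still lay above every 0 h library. The 10 adipocyte genes summed to 255, 268 and 95.5 FPKM in the same 2 h libraries and to 48.7, 55.1 and 72.6 at 0 h. Of the 7 tested, 3 were called higher, at a median log2 change of 1.14 for the 7. Over all 44 libraries Lpl (median 71.7 FPKM), Fabp4 (27.8) and Cebpa (15.1) had the highest medians of the list. Plin1, Cidec, Retn and Adipoq reached at most 1.07, 1.54, 2.11 and 5.51 FPKM. The part of the adipocyte genes in the result was not tested.

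Elovl6, which lengthens the fatty acid that Fasn makes, went the other way, from 26.1, 23.5 and 24.9 FPKM at 0 h to 16.0, 17.1 and 17.7 at 1 h and 10.2, 9.73 and 12.3 at 2 h. The log2 change was -0.53 ± 0.16 at 1 h and -1.14 ± 0.16 at 2 h (limma, adjusted p = 0.011 and 1.4e-06); scaled to the blood-cell genes it was 0.52 at 1 h and -0.04 at 2 h. Scd2 changed by -0.63 ± 0.15 at 2 h (adjusted p = 0.0015), from 317, 261 and 241 FPKM to 200, 172 and 155, and by 0.54 when scaled to the blood-cell genes. All early libraries of both genes lay below 0 h in FPKM.

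The remaining pair called lower at 2 h, Dhcr7 (the last reductase of cholesterol synthesis) and Acat2 (the cytosolic acetoacetyl-CoA thiolase), changed by -0.85 ± 0.29 and -0.60 ± 0.18 on the log2 scale (limma, adjusted p = 0.021 and 0.010), and by 0.25 and 0.54 when scaled to the blood-cell genes. Dhcr7 lost its call without 0 h replicate 1 or 2 or 2 h replicate 2 or 3 (changes from -0.83 to -0.68, adjusted p from 0.060 to 0.113). Acat2 lost it without 0 h replicate 1 (-0.53, adjusted p = 0.054) or 2 h replicate 2 (-0.50, adjusted p = 0.064).

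From 2 h to 8 h, 16 of the 24 genes outside fatty acid synthesis and 3 of the 8 fatty acid genes fell. This comparison was chosen after the values were seen and uses no 0 h library. Of the 32 genes, 19 were called lower and 0 higher by limma, against 2.81% lower and 3.38% higher among all genes tested. At an unadjusted p under 0.05, 23 were lower and 0 higher. The median log2 change of the 32 genes was -0.82, beside 0.08 over all genes. By role the lower calls took 5 of 7 mevalonate pathway genes, 8 of 11 squalene and sterol ring enzymes, 3 of 6 regulators and sterol handlers, and 3 of 8 fatty acid genes. The stromal genes moved with this step, with 1 of 21 tested called higher and 0 lower at a median of 0.61, and the blood-cell genes had a median of -0.36; their part in the result was not tested beyond the scaling given here. Scaled to the blood-cell genes, which shifted the median of all genes by 0.26, all 19 changes kept their sign and 10 kept their call. With the stromal level as a covariate 18 of the 19 kept their call. The labels give each library a code, and the codes form 6 runs of consecutive numbers. Both times fell in 1 run for replicate 1 and in another for replicate 2, and within these runs the median change of the 32 genes was -1.04 and -0.82. From 0 h to 2 h, 3 runs held both times, with medians of 0.04, 0.12 and 0.18 beside the pooled 0.13.

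In the mevalonate pathway the fall was largest at Hmgcs1, whose 8 h libraries read 5.28, 5.14 and 4.65 FPKM against 45.1, 27.4 and 37.1 at 2 h. The groups were far apart, and the log2 change was -2.61 ± 0.30 (limma, adjusted p = 5.9e-07). Idi1, the isomerase that makes dimethylallyl diphosphate, went from 82.8, 65.9 and 67.0 FPKM to 16.9, 9.61 and 17.0, a change of -2.27 ± 0.29 (adjusted p = 6.4e-06).

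Fdps went from 146, 134 and 111 FPKM at 2 h to 49.0, 42.2 and 41.0 at 8 h, with a log2 change of -1.54 ± 0.20 (limma, adjusted p = 8.1e-06). Fdps overlaps a second coding gene model on the same strand, Gm43738, and the authors' counting may have split their reads. Mvd, the decarboxylase that ends the mevalonate steps, went from 17.5, 17.7 and 14.7 to 4.98, 6.29 and 4.48 FPKM, a change of -1.50 ± 0.29 (adjusted p = 0.0015). For each of the 4 enzymes every 8 h library lay below every 2 h library, and the call also held when scaled to the blood-cell genes.

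Among the ring enzymes the early risers came back down. Sc4mol changed by -1.74 ± 0.24 on the log2 scale, from 101, 88.2 and 75.9 FPKM to 26.3, 27.0 and 23.7 (limma, adjusted p = 1.8e-05). Hsd17b7 changed by -1.63 ± 0.22, from 25.0, 27.4 and 16.1 FPKM to 7.45, 5.69 and 6.55 (adjusted p = 1.2e-05). Cyp51 changed by -1.47 ± 0.17, from 65.6, 71.7 and 50.4 FPKM to 22.0, 19.4 and 24.1 (adjusted p = 7.0e-07). The 8 h libraries of Hsd17b7 stood near its 0 h range, while those of Cyp51 and Sc4mol stood below theirs.

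The regulators divided. Insig1 changed by -2.46 ± 0.21, from 101, 112 and 86.5 FPKM at 2 h to 19.0, 16.0 and 16.6 at 8 h (limma, adjusted p = 3.6e-09). Its relative Insig2, with 10.4, 11.7 and 7.05 FPKM at 2 h and 11.5, 15.3 and 12.5 at 8 h, overlapped, and its change of 0.41 ± 0.25 did not pass (adjusted p = 0.370). Srebf2 changed by -0.93 ± 0.12, from 71.9, 64.6 and 63.9 FPKM to 38.7, 34.7 and 30.8 (adjusted p = 7.4e-06), and by -0.63, no longer called, when scaled to the blood-cell genes.

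Stard4, a cytosolic sterol carrier, changed by -1.49 ± 0.26, from 19.7, 13.1 and 14.3 FPKM to 4.18, 4.33 and 6.27 (limma, adjusted p = 5.2e-04). Srebf1 and Scap gave no call: Srebf1 had 23.5, 27.1 and 26.6 FPKM at 2 h and 23.6, 26.5 and 20.1 at 8 h, with a log2 change of -0.14 ± 0.25 (adjusted p = 0.821), and Scap changed by 0.18 ± 0.16 (adjusted p = 0.571). The sign of the Srebf1 value turned under the scaling to the blood-cell genes, to 0.16. Srebf1 overlaps Rai1 on the opposite strand.

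The fatty acid genes were mixed. Scd2 changed by -1.48 ± 0.15, from 200, 172 and 155 FPKM to 65.6, 66.4 and 54.3 (limma, adjusted p = 6.7e-08), with a wide gap between the groups. Elovl6 changed by -0.65 ± 0.16 to 6.21, 6.56 and 6.68 FPKM (adjusted p = 0.011), a call lost without 2 h replicate 3 (-0.55, adjusted p = 0.080). Fads1 changed by -0.70 ± 0.17 to 36.9, 42.3 and 42.7 FPKM (adjusted p = 0.012), a call lost without 2 h replicate 1 (-0.63, adjusted p = 0.058), 2 h replicate 2 (-0.54, adjusted p = 0.095) or 8 h replicate 1 (-0.63, adjusted p = 0.065). Scaled to the blood-cell genes, Elovl6 (-0.37, adjusted p = 0.353) and Fads1 (-0.40, adjusted p = 0.519) also lost their calls, and Scd2 kept its call.

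The core of fatty acid synthesis gave no call in this step. Fasn, the fatty acid synthase, had 40.1, 45.9 and 48.2 FPKM at 2 h and 33.3, 36.7 and 47.1 at 8 h. These overlap, with a log2 change of -0.20 ± 0.17 (limma, adjusted p = 0.532). Acly changed by -0.22 ± 0.16 (adjusted p = 0.449) and Acaca, the acetyl-CoA carboxylase, by 0.22 ± 0.18 (adjusted p = 0.530); scaled to the blood-cell genes Fasn and Acly took the opposite sign (0.10 and 0.08). Whether the fatty acid genes as a group differ from the sterol genes was not tested.

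**Figure D3:**
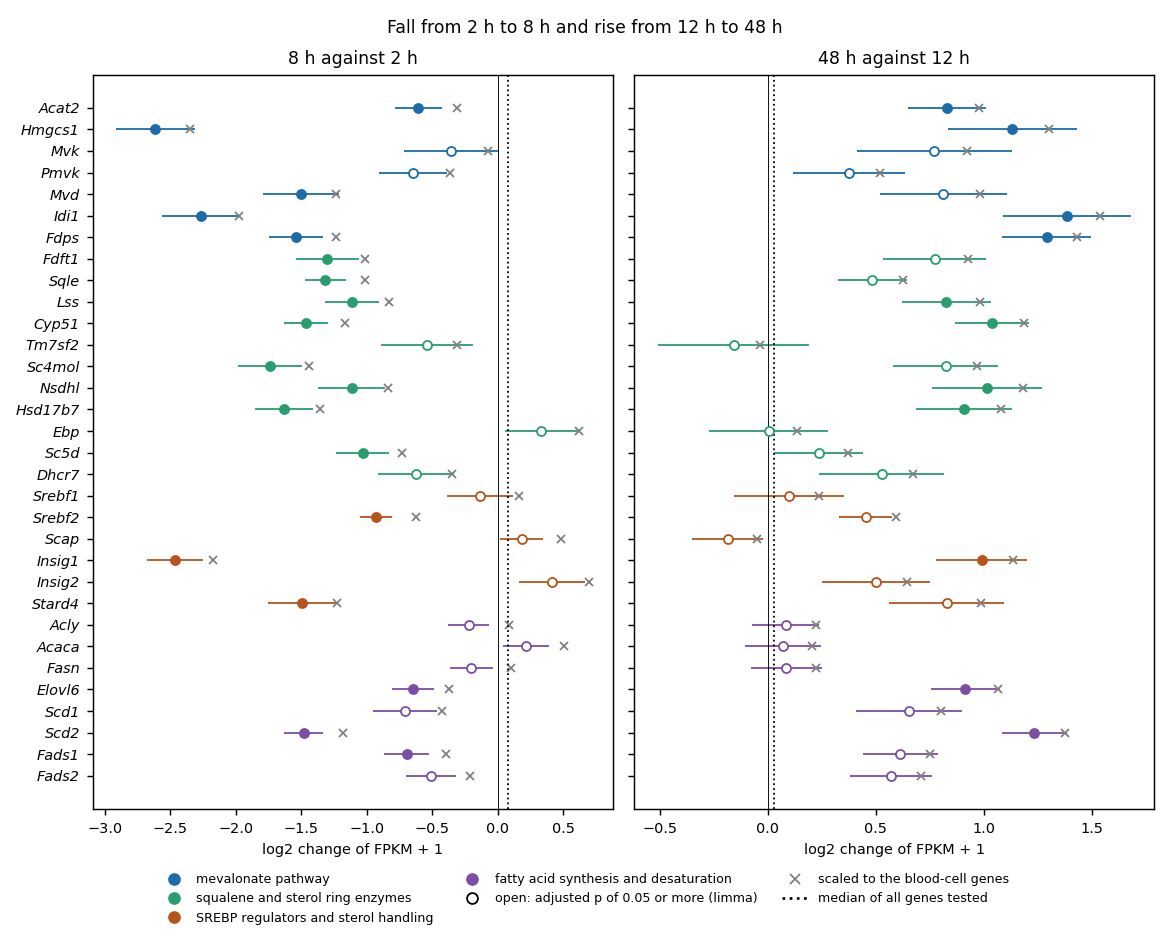
Log2 change of FPKM + 1 for each of the 32 genes from 2 h to 8 h (left) and from 12 h to 48 h (right), with SE bars from limma; filled points passed an adjusted p of 0.05, crosses give the value scaled to the blood-cell genes and the dotted line is the median of all genes tested. On the left 19 points are filled, all below 0, and on the right 11 are filled, all above 0; the crosses of all filled points have the same sign as the points.

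From 6 h to 24 h many of the genes lay low in FPKM against 0 h, a direction that turned for most of them when scaled to the blood-cell genes. By limma 0 were called higher at 6, 8, 10, 12 and 24 h on the FPKM scale (at an unadjusted p under 0.05, 2 at 24 h and 0 at the others), where the background of higher calls was 19.0%, 20.4%, 21.1%, 21.6% and 20.8%. Lower calls numbered 13 by 6 h (background 19.2%), 21 by 8 h (19.2%), 20 by 10 h (20.5%), 18 by 12 h (20.3%) and 16 by 24 h (22.5%). When scaled to the blood-cell genes, which moved the median of all genes by 1.15 at 6 h, 1.14 at 8 h and 1.71 at 24 h, 8 of 13, 14 of 21 and 15 of 16 of the called genes took the opposite sign, and 21, 17 and 28 of the 32 genes were called higher, beside 68.0%, 68.0% and 79.0% of all genes. On that scale the median change of the 32 genes at 8 h was 0.82, beside 1.11 for all genes. Without 24 h replicate 1 or 2, 1 gene was called higher at 24 h. Within the 2 runs of library codes that held both times, the median log2 changes were -0.59 and -0.56 for 8 h, then -0.44 and -0.38 for 24 h. With the stromal covariate 1 of the 13, 1 of the 21 and 0 of the 16 kept their call, and 11, 21 and 15 kept their sign; the median of the 32 genes at 8 h was -0.67 beside -0.59 without it, and the calls among all genes at 8 h went from 5505 to 12.

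Scd2 at 8 h, with 65.6, 66.4 and 54.3 FPKM, lay far below its 0 h libraries of 317, 261 and 241. Its log2 change of -2.12 ± 0.15 (limma, adjusted p = 5.6e-12) was still called lower when scaled to the blood-cell genes and with the stromal covariate. At 6 h the change of Scd2 was -1.87 ± 0.15 (adjusted p = 6.7e-11), and it lost its call when scaled to the blood-cell genes (-0.38). Mvd at 8 h changed by -1.97 ± 0.29 (adjusted p = 2.6e-06) and Hmgcs1 by -1.72 ± 0.30 (adjusted p = 2.7e-05). Neither kept its call when scaled to the blood-cell genes (-0.60 and -0.37) or with the stromal covariate (-1.14 and -1.29).

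At 6 h, Insig1 had changed by -1.48 ± 0.21 (limma, adjusted p = 1.5e-06) and Dhcr7 by -1.61 ± 0.29 (adjusted p = 4.2e-05), and scaling to the blood-cell genes left -0.03 and -0.21, not called. Fasn changed by -0.65 ± 0.17 at 6 h (adjusted p = 0.0021) and by 0.81 when scaled to the blood-cell genes.

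The largest changes at 24 h, falls in FPKM whose sign turned for each of these genes but Tm7sf2 when scaled to the blood-cell genes, were in mevalonate pathway genes, Dhcr7, Tm7sf2, Insig1, Srebf1 and Scd2. Mvd read 27.8, 25.1 and 18.1 FPKM at 0 h and 10.3, 7.01 and 4.89 at 24 h, a log2 change of -1.59 ± 0.29 (limma, adjusted p = 4.9e-05). Acat2 read 44.2, 42.8 and 33.5 against 22.9, 20.1 and 12.6 FPKM, a change of -1.11 ± 0.18 (adjusted p = 8.7e-06). Fdps read 133, 111 and 109 against 72.9, 55.2 and 40.6 FPKM, a change of -1.09 ± 0.20 (adjusted p = 6.1e-05). No 24 h library of the 3 genes reached the 0 h range, yet scaled to the blood-cell genes their changes were 0.35, 0.92 and 0.99.

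Dhcr7 read 26.1, 30.4 and 16.9 FPKM at 0 h and 8.86, 8.88 and 5.83 at 24 h, a change of -1.51 ± 0.29 (limma, adjusted p = 7.8e-05). Tm7sf2, a sterol reductase, read 5.73, 11 and 8.73 against 0.626, 3.21 and 1.63 FPKM, a change of -1.81 ± 0.35 (adjusted p = 8.5e-05). Scaled to the blood-cell genes the values were 0.45 for Dhcr7 and -0.15, not called, for Tm7sf2, whose gene model overlaps Vps51 on the same strand.

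Insig1 changed by -1.18 ± 0.21 at 24 h (limma, adjusted p = 3.4e-05), with 33.0, 24.6 and 17.8 FPKM. Srebf1 changed by -1.12 ± 0.25 (adjusted p = 5.7e-04), from 41.0, 46.5 and 25.6 FPKM to 24.2, 22.3 and 7.77. Scd2 changed by -1.62 ± 0.15 (adjusted p = 2.2e-09), to 93.6, 86.1 and 84.1 FPKM. Scaled to the blood-cell genes the 3 changes were 0.87, 0.89 and 0.48. The low Srebf1 value belongs to 24 h replicate 3, which was also the lowest 24 h library of Mvd, Acat2, Fdps, Dhcr7, Insig1 and Fasn, and whose blood-cell genes summed to 379 FPKM against 838 and 645 in the other two.

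Between 6 h and 24 h the sole call was Elovl6 (1 higher and 0 lower by limma, background 0.964% and 1.11%, and 1 of each at an unadjusted p under 0.05). Its log2 rise was 0.74 ± 0.16 (limma, adjusted p = 0.011), from a mean of 6.98 to 12.3 FPKM, and the call was lost without 6 h replicate 2 (0.69, adjusted p = 0.056). Without 24 h replicate 2, 1 gene was called lower.

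From 12 h to 48 h, 11 of the 32 genes rose. This comparison, also chosen after the values were seen, called 0 lower by limma beside the 11 higher, against 0.719% higher and 0.611% lower among all genes. At an unadjusted p under 0.05, 21 were higher and 0 lower. The median log2 change of the 32 genes was 0.71, beside 0.03 over all genes. The 11 were 4 of 7 mevalonate pathway genes, 4 of 11 ring enzymes, 1 of 6 regulators (Insig1) and 2 of 8 fatty acid genes (Scd2 and Elovl6). All 11 kept a positive sign when scaled to the blood-cell genes (all-gene shift 0.13), with 5 still called, and all 11 kept their call with the stromal covariate. Without 12 h replicate 2 the count was 7, and without 12 h replicate 3 or any 1 of the 48 h libraries it was 6. The single run of library codes that held both times, that of replicate 3, gave a median change of 0.76. Of the 21 stromal genes tested, 2 were called lower and 0 higher, at a median of -0.26.

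Fdps went from 51.8, 32.8 and 39.7 FPKM at 12 h to 106, 95.9 and 101 at 48 h, a log2 rise of 1.29 ± 0.20 (limma, adjusted p = 0.0012). Scd2 went from 78.3, 64.8 and 59.8 to 173, 143 and 165 FPKM, a rise of 1.23 ± 0.15 (adjusted p = 3.6e-05). Cyp51 went from 25.7, 17.4 and 20.3 to 40.8, 40.4 and 51.3 FPKM, a rise of 1.04 ± 0.17 (adjusted p = 0.0015). The groups of the 3 genes did not overlap, and these calls held without any single library. Scaled to the blood-cell genes, Fdps and Scd2 kept their call and Cyp51 lost it (1.18, adjusted p = 0.089).

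Idi1 rose by 1.39 ± 0.29 (limma, adjusted p = 0.012), from 18.6, 6.63 and 16.6 to 39.1, 32.5 and 34.0 FPKM, and lost its call without 12 h replicate 2 (0.96, adjusted p = 0.126) or 48 h replicate 1 (1.31, adjusted p = 0.075). Hmgcs1 rose by 1.13 ± 0.30 (adjusted p = 0.047), from 5.74, 4.98 and 5.27 to 13.1, 11.3 and 14.4 FPKM. The call for Hmgcs1 was lost without any single library of the 6 (log2 changes from 1.06 to 1.22, adjusted p from 0.073 to 0.157), although its groups lay well apart. It was also lost without the filter on low values (adjusted p = 0.060), under quantile (0.091) and median-ratio scaling (0.073), without the variance trend (0.053), with the block for runs of library codes (0.94, adjusted p = 0.087) and when scaled to the blood-cell genes (1.30, adjusted p = 0.137).

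Measured from 24 h to 72 h, 13 genes were called higher and 0 lower by limma, against 7.60% and 2.80% of all genes (15 and 0 at an unadjusted p under 0.05). By role these were 3 of 7 mevalonate pathway genes, 2 of 11 ring enzymes, 3 of 6 regulators and 5 of 8 fatty acid genes. The blood-cell genes rose in the same step, 14 of 18 called higher at a median of 1.00. Scaled to them, with the median of all genes shifted by -0.87, 8 of the 13 genes took the opposite sign and 0 were called higher. The run of library codes that held both times gave a median change of 0.72, from replicate 3. Without 24 h replicate 3 the count was 4, and without 72 h replicate 3 it was 7.

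Acat2 returned from 22.9, 20.1 and 12.6 to 35.5, 36.9 and 40.2 FPKM, a log2 rise of 1.02 ± 0.18 (limma, adjusted p = 7.2e-04), and Scd2 rose by 1.20 ± 0.15 (adjusted p = 2.1e-05) to 231, 192 and 191 FPKM. These calls held without any single library, and the changes were 0.03 and 0.18 when scaled to the blood-cell genes. Dhcr7 rose by 1.21 ± 0.29 (adjusted p = 0.0080) to 17.4, 21.1 and 19.2 FPKM, a call lost without 24 h replicate 3 (1.03, adjusted p = 0.089) and when scaled to the blood-cell genes (0.27). Fasn rose by 0.54 ± 0.17 (adjusted p = 0.034) to 47.6, 49.4 and 73.2 FPKM, a call lost without 24 h replicate 3 (0.43, adjusted p = 0.219) or 72 h replicate 3 (0.34, adjusted p = 0.212) and under quantile (0.44, adjusted p = 0.074) or median-ratio scaling (0.41, adjusted p = 0.105), and the change was -0.47 when scaled to the blood-cell genes.

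Late in the course few genes were called against 0 h, and no run of library codes held both 0 h and a time from 48 h on. Against 0 h, higher calls numbered 4 by 48 h (background 22.0%), 1 by 72 h (17.2%), 0 by 96 h (7.79%; 2 at an unadjusted p under 0.05) and 1 by 144 h (5.64%). Lower calls numbered 6 by 48 h (background 16.4%), 2 by 72 h (8.23%), 2 by 96 h (2.49%) and 1 by 144 h (3.24%), and all 6 of the 48 h falls took the opposite sign when scaled to the blood-cell genes. At 72 h the gene above 0 h was Fads1, with 46.9, 59.8 and 76.2 FPKM and a log2 change of 0.63 ± 0.17 (limma, adjusted p = 0.0064). That call was lost without 72 h replicate 3 (0.46, adjusted p = 0.086), and the change was -0.30 with the stromal covariate. The genes below 0 h at 72 h were Mvd (-0.83 ± 0.29, adjusted p = 0.034) and Scd2 (-0.41 ± 0.15, adjusted p = 0.044), each of which lost its call without 0 h replicate 1 or 2 or 72 h replicate 2 or 3 (Mvd -0.88 to -0.71, adjusted p from 0.066 to 0.141; Scd2 -0.44 to -0.30, adjusted p from 0.071 to 0.231) and took the opposite sign when scaled to the blood-cell genes (0.18 and 0.66). The block for runs of library codes also ended both calls (Mvd -0.67, adjusted p = 0.211; Scd2 -0.27, adjusted p = 0.226), and that of Scd2 was lost without the variance trend (adjusted p = 0.057).

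At 144 h the 2 calls were both fatty acid genes. Elovl6 read 35.0, 45.1 and 33.3 FPKM, above all 0 h libraries, and its log2 rise of 0.57 ± 0.16 (limma, adjusted p = 0.019) lost its call without 0 h replicate 2 (0.54, adjusted p = 0.082) or 144 h replicate 2 (0.44, adjusted p = 0.129), or with the block for runs of library codes (0.36, adjusted p = 0.259). Scd2 read 153, 163 and 217 FPKM, below all 0 h libraries, a change of -0.63 ± 0.15 (adjusted p = 0.0070) that lost its call without 0 h replicate 1 (-0.51, adjusted p = 0.075) and when scaled to the blood-cell genes (-0.08).

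From 72 h to 144 h, Elovl6 was the 1 gene called higher and Fads1 the 1 called lower (background 2.90% and 7.86%). Elovl6 rose by 0.65 ± 0.16 (limma, adjusted p = 0.0080), a call lost without 72 h replicate 3 (0.56, adjusted p = 0.081), without 144 h replicate 2 (0.52, adjusted p = 0.085) and when scaled to the blood-cell genes (0.13). Fads1 changed by -0.64 ± 0.17 to 34.4, 35.9 and 44.6 FPKM (adjusted p = 0.016), a call lost without 72 h replicate 3 (-0.47, adjusted p = 0.172), 144 h replicate 1 (-0.57, adjusted p = 0.066) or 144 h replicate 2 (-0.60, adjusted p = 0.082). Without 72 h replicate 1, 3 genes were called lower from 72 h to 144 h and 2 higher at 72 h against 0 h, and without 144 h replicate 1, 2 were called higher at 144 h against 0 h.

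The single libraries at 120 h and 168 h have no replicate and no test. In the 120 h library 9 of the 32 genes lay above the range of the 0 h libraries, 8 below and 15 within. In the 168 h library the numbers were 11, 11 and 10. The matching shares over all genes were not counted, so these numbers do not set the 32 genes apart. Elovl6 was above the 0 h range in both (31.4 and 35.6 FPKM), as were Cyp51 (46.1 and 43.0) and Srebf2 (53.2 and 58.7). Scd2 (205 and 198 FPKM), Insig1 (42.3 and 43.3), Mvd (15.9 and 15.6) and Idi1 (44.3 and 41.5) were below it in both.

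Ratios of related genes within a library cancel a rescaling of the whole library, apart from the small effect of the 1 added to each FPKM. They show unequal change largely free of the choice of scale, but not free of a change in the mix of cell types. The part of that mix was not tested. With the stromal covariate the log2 changes at 24 h against 0 h went from 0.52 to -0.16 for Scd1 and from 0.51 to -0.20 for Insig2. Those of Scd2 went from -1.62 to -1.27 and those of Insig1 from -1.18 to -0.72, and none was called with it. The log2 ratio of Scd1 to Scd2 was -4.75 ± 0.32 at 0 h (SD, n = 3), -2.41 ± 0.31 at 8 h, -2.62 ± 0.44 at 24 h and -4.17 ± 0.41 at 144 h. Every 8 h and 24 h library lay above every 0 h library, as did every other library from 0.5 h (mean -3.33) to 72 h (mean -3.76). The difference from 0 h was 2.35 at 8 h and 2.14 at 24 h (exact two-sided permutation test, p = 0.1 each, the smallest p that 3 against 3 libraries allow), and 0.58 at 144 h with overlap (p = 0.2). The 8 h ratios were added after the values were seen. Scd1 and Scd2 are paralogs of similar sequence, and how the authors' counting shared reads between them is not stated.

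The log2 ratio of Insig1 to Insig2 averaged 2.30 before the switch, 0.37 by 8 h, 0.62 by 24 h and 1.53 by 144 h. All libraries at these 3 later times lay below all at 0 h, by 1.93 at 8 h, 1.69 at 24 h and 0.77 at 144 h on average (exact two-sided permutation test, p = 0.1 each, the smallest possible). At 1 h and 2 h, which were not tested, all libraries lay above all at 0 h, with means of 2.81 and 3.25. Srebf1 to Srebf2 stood at -0.43 at 0 h and differed by -0.13 at 8 h (exact permutation p = 0.8), -0.75 at 24 h (p = 0.3) and -0.06 at 144 h (p = 0.8), with overlap at these 3 times. At 1, 2 and 4 h, which were not tested, all its libraries lay below all at 0 h, with means of -1.01, -1.34 and -1.18. Leaving out 1 library, the 24 h difference ranged from -1.04 to -0.32 and the 144 h difference from -0.30 to 0.11, so the latter had no stable sign. Over the 3 ratios and 3 times the tests numbered 9, and none can pass 0.05 at this size, adjusted or not.

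**Figure D4:**
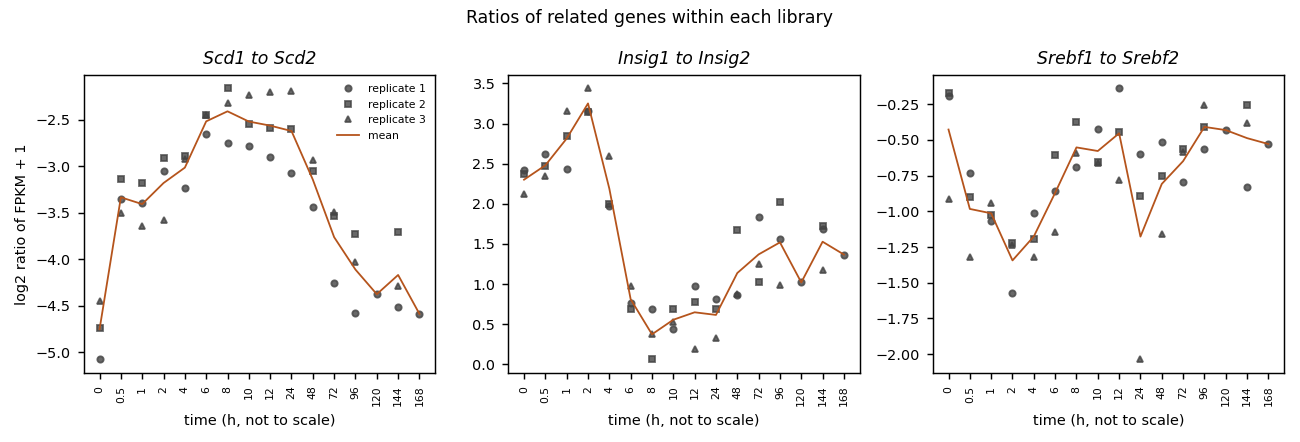
Log2 ratio of FPKM + 1 within each library for Scd1 to Scd2, Insig1 to Insig2 and Srebf1 to Srebf2 by time, points for libraries and lines for means. The first ratio lies above all its 0 h values from 0.5 h to 72 h. The second lies above all its 0 h values at 1 h and 2 h and below them from 6 h on. The third lies below all its 0 h values at 1, 2 and 4 h and overlaps them at 8, 24 and 144 h.

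Of 40 other genes of sterol and fatty acid handling, 38 passed the filter on low values. From 2 h to 8 h 1 of them was called higher and 7 lower (background 3.38% and 2.81%), with a median change of -0.17; from 12 h to 48 h 1 was called higher and 0 lower (0.719% and 0.611%). The gene called higher at 8 h was Mlx, a transcription factor partner in glucose-driven lipid synthesis, which rose by 0.80 ± 0.20 (limma, adjusted p = 0.012) from 19.3 ± 4.45 to 33.8 ± 1.70 FPKM (SD, n = 3) and lost its call without 2 h replicate 3 (0.61, adjusted p = 0.118) or 8 h replicate 2 (0.76, adjusted p = 0.053). At 24 h against 0 h 6 of the 38 were called higher and 15 lower (background 20.8% and 22.5%).

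The ones that changed most at 24 h moved in opposite directions. Me1, the malic enzyme that supplies NADPH for lipid synthesis, went from 4.35 ± 4.69 to 29.1 ± 2.08 FPKM, a log2 rise of 2.83 ± 0.34 (limma, adjusted p = 6.4e-08). Cyb5r3, a reductase that passes electrons to desaturases, rose by 2.38 ± 0.22 (adjusted p = 1.7e-09), from 51.4 to 272 FPKM. Abcg1, a sterol exporter, changed by -2.66 ± 0.32 (adjusted p = 7.0e-08), from 14.7 ± 2.17 to 1.59 ± 0.976 FPKM. The 3 kept their direction and call when scaled to the blood-cell genes, a scale on which 79.0% of all genes were called higher, and lost the call with the stromal covariate (0.43, 0.73 and -1.21).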

How the data were processed

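RNA was measured in 44 libraries over 16 time points. The deposited table gives FPKM per gene and library, made by the authors; per the submitters' processing notes the tools were TopHat2 2.1.0 and Cufflinks 2.1.1 on mm9, and what the table's word "corrected" refers to is not stated. Groups came from the sample titles. Every column was matched to a library by its code.

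Values were taken as log2(FPKM + 1), so changes of low genes are understated. Genes with 1 FPKM or more in at least 3 of the 42 libraries of replicated times were kept (13907). limma 3.58.1 in R 4.3.3 fitted 1 mean per time with a mean-variance trend, and p-values were Benjamini-Hochberg adjusted over all genes within each contrast; called means adjusted p under 0.05. Contrasts were the 13 later times against 0 h and 3 steps (24 h against 6 h, 72 h against 24 h, 144 h against 72 h). The comparisons 8 h against 2 h, 48 h against 12 h and 2 h against 1 h, and the closer look at 2 h and 8 h against 0 h, were added after values were seen (2 h against 1 h without the alternatives that leave out a library). Simulated data for 8 h against 0 h (13907 genes) gave calls for 54 of 100 genes changed 2-fold and 91 of 100 changed 4-fold, with 8 false calls. No other gene was changed in the simulation and no shift in the mix of cell types was built in. The measured contrast called 5505 genes, so these rates may not carry over to it.

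The members and all gene lists were chosen with earlier results of these data known. Genes given library by library are, per role, the 4 with the largest absolute change among those called at 1, 6, 24, 72 or 144 h against 0 h, plus Insig1, Srebf1, Srebf2, Scd1, Scd2 and Fasn; others were chosen after their values were seen. Not every gene the rule gave among the other lipid genes is printed. The mm9 coordinates are not used here; promoters are from RefSeq (GRCm38.p6). Of 10 adipocyte genes, Lep was listed at 0 in all 44 libraries, and the total of the list went from 58.8 FPKM (0 h) to 231 (0.5 h), 123 (8 h) and 48.8 (144 h). Alternatives were another pseudocount, other filters, scalings, blocks and variance models, a stromal covariate, and each library left out in turn.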

Additional observations from a re-analysis of the deposited data

How the results depend on the processing

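The 29 genes with some change from 0 h stayed within 1.5 times in all alternatives run (28 to 30 leaving out 1 library). The fall from 2 h to 8 h (19 genes) ranged from 17 to 19 leaving out 1 library and was 10 when scaled to the blood-cell genes. Counts that moved by over 1.5 times follow, as numbers of the 32 genes, first for 1, 2, 6, 8, 24, 72 and 144 h against 0 h and the steps between later times.

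Scaled to the blood-cell genes, the higher calls against 0 h became 25 (1 h), 24 (2 h), 21 (6 h), 17 (8 h), 28 (24 h) and 25 (72 h). The lower calls became 0 at 1, 2, 6, 24, 72 and 144 h and 1 at 8 h. For the steps this scaling gave 4 higher at 24 h against 6 h, 0 higher and 7 lower at 72 h against 24 h, 0 higher at 144 h against 72 h and 5 higher at 48 h against 12 h. With the stromal covariate, 0 were higher at 1, 2 and 72 h and at 144 h against 72 h. Lower calls with it were 0 at 1, 2, 24, 72 and 144 h and at 144 h against 72 h, and 1 at 6 h and 8 h. Without the filter, and with median-ratio scaling, 3 were lower at 1 h; median-ratio scaling also gave 1 higher at 24 h and 8 higher at 72 h against 24 h. Without the variance trend, 1 was lower at 72 h. The block for runs of library codes gave 4 higher at 72 h, 2 higher and 3 lower at 144 h, and 3 lower at 144 h against 72 h.

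For the other times against 0 h, scaling to the blood-cell genes gave 21 higher calls by 0.5 h, 27 (4 h), 19 (10 h), 21 (12 h), 29 (48 h) and 2 (96 h), and its lower calls became 0 by 4, 12, 48 and 96 h and 1 by 10 h. The stromal covariate gave 0 in both directions at these 6 times, apart from 1 higher at 96 h. At 96 h the lower calls were 1 with a pseudocount of 0.1 and 0 without the filter or with the block for code runs, and 1 gene was higher with the filter at 5 FPKM and with that block. With the code-run block 1 was lower at 0.5 h. From 1 h to 2 h, 1 was lower with the filter at 5 FPKM, the stromal covariate or the code-run block.

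Scaled to the blood-cell genes, these log2 changes took the opposite sign: Elovl6 0.52 at 1 h; Scd2 0.54, Dhcr7 0.25 and Acat2 0.54 at 2 h; Fasn 0.81 at 6 h; Mvd 0.35, Acat2 0.92, Fdps 0.99, Dhcr7 0.45, Insig1 0.87, Srebf1 0.89 and Scd2 0.48 at 24 h; Mvd 0.18 and Scd2 0.66 at 72 h; Fasn -0.47 at 72 h against 24 h; and Srebf1 0.16, Fasn 0.10 and Acly 0.083 at 8 h against 2 h. With the stromal covariate Elovl6 was 0.13 at 1 h, and Fads1 was -0.22 at 2 h and -0.30 at 72 h. The causes of these moves were not tested. Of the 73 log2 changes of single genes followed, 0 changed sign and 18 lost their call when 1 of the 42 libraries was left out.

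Leaving out 1 library, calls ranged as follows: lower at 1 h from 1 to 4, and at 2 h from 2 to 5; higher at 24 h from 0 to 1; higher at 72 h from 0 to 2 and lower from 0 to 3; higher at 144 h from 0 to 2 and lower from 0 to 1; higher and lower at 24 h against 6 h from 0 to 1; higher at 72 h against 24 h from 4 to 13; higher at 144 h against 72 h from 0 to 1 and lower from 0 to 3; and higher at 48 h against 12 h from 6 to 8. The log2 ratio of Srebf1 to Srebf2 at 144 h against 0 h ranged from -0.30 to 0.11.

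The replicate numbers did not meet the bar set for pairing, that every same-numbered pair correlate at over 0.1. Since the bar asks this of all 273 pairs, missing it says little about pairing. Libraries of the same code run correlated at a mean r of 0.08 (57 of 145 pairs over 0.1), and those of other runs at -0.02 (47 of 674). Deviations of same-numbered libraries correlated at a mean r of 0.06 (lowest -0.17, 93 of 273 pairs over 0.1), those of other numbers at -0.03 (11 of 546 over 0.1), and 36 of 42 libraries lay closest to one of their own number, a hint from the data and not from the design. With the replicate number as a block, 1 gene was higher at 24 h and 2 were lower at 144 h against 72 h; 1 was lower at 0.5 h, 1 higher at 96 h and 1 lower from 1 h to 2 h, where none was called without it. The other counts with this block stayed within 1.5 times. FPKM values carry no counts, so no counting interval can be given.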
